A study of Mus musculus with 2 samples.

Results

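The genes encoded in the mouse mitochondrial genome were described in polyadenylated RNA from adult lung. They were taken as every gene row whose GENCODE mouse symbol starts with mt-, which gave 37 genes of 43346 gene rows: 13 protein genes, 2 ribosomal RNA genes and 22 transfer RNA genes. Both libraries came from lung of C57BL/6J mice aged 8 weeks, with male and female littermates pooled, and from RNA longer than 200 nt that was selected for polyadenylation and depleted of ribosomal RNA. They form 1 group with 2 replicates, so the series holds no contrast between conditions, no test was run and no p-value is given. Per the labels the tissue samples are separate but share a donor record, and how many animals were pooled is not stated, so part of the difference between replicates may be technical. The tables assigned 48234758 counts to genes in replicate 1 and 44182823 in replicate 2. All 6 lung markers on a fixed list were present at 1 TPM or more in both replicates, among them Sftpc, a surfactant protein of alveolar type II cells, at 22806 TPM in replicate 1 and 22331 TPM in replicate 2.

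The mitochondrial chromosome is a small circle that is transcribed from both strands into long precursors. Transfer RNAs lie between most of the longer genes, and their excision releases the individual messenger and ribosomal RNAs, most of which then receive short poly(A) tails. The encoded proteins are subunits of respiratory complexes I, III and IV and of ATP synthase, which they form together with many subunits made from nuclear genes. Fragments of the mitochondrial genome have also been copied into nuclear chromosomes, where some are annotated as pseudogenes.

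On the mitochondrial chromosome of the mm10 build, 28 of the 37 genes are annotated on the plus strand and 9 on the minus strand. mt-Nd6 is the only protein gene on the minus strand. The poly(A) tail is part of the coding information of some of these genes, because it completes the stop codon, so the last 24 bases of 3 genes with an incomplete stop and of 2 genes with a complete one are shown from the GENCODE M21 transcripts. Capitals mark the stop codon bases present in the gene.
mt-Co3: tctccatttattgatgaggatctT
mt-Nd4: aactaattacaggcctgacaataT
mt-Cytb: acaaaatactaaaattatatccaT
mt-Co1: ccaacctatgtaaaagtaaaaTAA
mt-Nd6: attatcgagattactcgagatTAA
mt-Co3, mt-Nd4 and mt-Cytb end on a single T, while the other 10 protein genes carry all 3 bases.

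Several genes share bases, which bears on how fragments can be assigned. The whole of mt-Atp8 is shown with the 43 bases it shares with mt-Atp6 in capitals, followed by the 7 bases that the end of mt-Nd4l shares with the start of mt-Nd4 and by the 14 bases where the ends of mt-Nd5 and mt-Nd6 meet on opposite strands.
mt-Atp8: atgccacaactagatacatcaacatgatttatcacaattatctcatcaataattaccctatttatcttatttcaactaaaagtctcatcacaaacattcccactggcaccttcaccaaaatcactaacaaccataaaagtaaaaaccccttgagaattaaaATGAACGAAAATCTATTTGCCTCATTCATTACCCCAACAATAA
mt-Nd4l, last 30 bases: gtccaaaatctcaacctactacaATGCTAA
mt-Nd4, first 30 bases: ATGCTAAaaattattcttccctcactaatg
mt-Nd5, last 30 bases: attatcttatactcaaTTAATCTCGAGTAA
mt-Nd6, last 30 bases: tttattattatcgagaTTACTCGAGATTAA
The shared stretch of mt-Nd5 and mt-Nd6 is the same double-stranded DNA read from either strand, and these libraries kept strand per the labels. Fragments from the shared stretch of mt-Atp8 and mt-Atp6 come from the same strand, and strand does not separate them.

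The 22 transfer RNA genes, 14 on the plus strand and 8 on the minus strand, had an expected count of 0 in both replicates. They are 59 to 75 bases long, below the 200 nt size selection, and the shortest and the longest are shown whole.
mt-Ts2: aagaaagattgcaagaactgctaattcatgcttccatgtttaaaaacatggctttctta
mt-Tl1: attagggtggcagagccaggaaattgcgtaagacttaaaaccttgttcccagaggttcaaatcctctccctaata
Each transfer RNA gene had a deposited effective length of 0, meaning that no fragment of the library's length distribution could start in it. A zero of this kind carries no upper limit on the amount of transfer RNA. Across all gene rows, 5975 had an effective length of 0 in both replicates, the longest of them 189 bases, and 30 of these held a count. Transfer RNA levels were therefore not measured by these tables, and the 15 protein and ribosomal RNA genes carry all the values below.

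All 15 of these genes were at 1 TPM or more in both replicates, against 32.0% of all gene rows. The mitochondrial rows together made up 3.18% of the TPM of replicate 1 and 1.53% of that of replicate 2, or 2.35% ± 1.17 (SD, n = 2). By expected count the share was 1.58% in replicate 1, with an exact Clopper-Pearson 95% interval from 1.581% to 1.588%, and 0.840% in replicate 2, with an interval from 0.838% to 0.843%. These intervals cover counting error only, and sequenced fragments without molecular identifiers are not independent molecules. The replicates were far apart next to their counting error, with replicate 1 the higher.

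**Figure D1:**
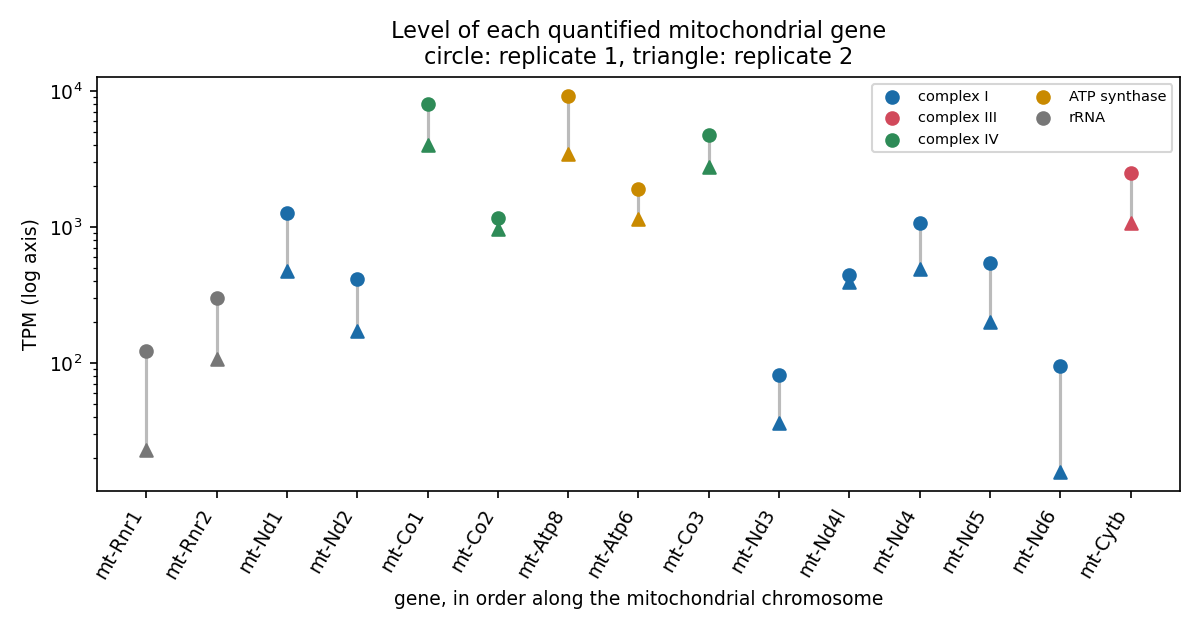
Level of the 15 quantified mitochondrial genes in TPM on a log axis, in gene order along the chromosome, with circles for replicate 1, triangles for replicate 2, a grey line joining the pair and colours for the complex or RNA class. The circle lies above the triangle for every gene, with mt-Co2 and mt-Nd4l closest together and mt-Nd6 and mt-Rnr1 farthest apart.

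Complex IV, cytochrome c oxidase, passes electrons to oxygen, and its mitochondrial subunits form the catalytic core. mt-Co1, which carries the site of oxygen reduction, was at 7966 TPM in replicate 1 and 3999 TPM in replicate 2. It alone held 50.3% of all mitochondrial counts in replicate 1 and 50.7% in replicate 2, so its share of these RNAs was nearly the same in both. mt-Co3, a core subunit without a redox centre, was at 4723 and 2765 TPM. mt-Co2, which receives electrons from cytochrome c, was at 1158 and 972 TPM, the lowest of the 3 in both replicates.

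The 2 mitochondrial subunits of ATP synthase lie in its membrane part. mt-Atp6, which forms the proton path against the rotating ring, was at 1902 TPM in replicate 1 and 1137 TPM in replicate 2. mt-Atp8, a short subunit of the stator, was at 9230 and 3447 TPM, the highest value of all 15 genes in replicate 1 and the second highest in replicate 2. That level rests on few fragments: mt-Atp8 is 204 bases long, its effective length was 4.55 bases in replicate 1 and 4.01 in replicate 2, and its expected counts were 1518 and 488. Divided by annotated length instead, mt-Atp8 had 7441 counts per kilobase in replicate 1 and 2392 in replicate 2, against 47604 and 27758 for mt-Atp6. The ratio of mt-Atp8 to mt-Atp6 was thus 4.85 and 3.03 on the TPM scale and 0.156 and 0.0862 per annotated kilobase, and the order of these overlapping genes depends on the length used.

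mt-Cytb, the only mitochondrial subunit of complex III and its electron-carrying cytochrome b, was at 2491 TPM in replicate 1 and 1061 TPM in replicate 2. Its expected counts were 84084 and 34971. By the TPM of mitochondrial rows alone, it lay above every complex I gene in both replicates. Nuclear rows that match some complex I genes, given below, are not counted here.

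Complex I takes electrons from NADH, and all 7 of its mitochondrial genes encode subunits of the proton-pumping membrane arm. mt-Nd1, next to the quinone site, was at 1265 TPM in replicate 1 and 471 TPM in replicate 2. mt-Nd4, one of the antiporter-like pump subunits, was at 1073 and 490 TPM. mt-Nd5, the antiporter-like subunit at the far end of the arm, was at 539 and 201 TPM. mt-Nd2, the remaining antiporter-like subunit, stood at 414 and 171 TPM, below mt-Nd5 in both replicates. The short gene mt-Nd4l, which overlaps mt-Nd4, was at 446 and 394 TPM. mt-Nd3, a small subunit near the quinone site, was at 81.2 and 36.5 TPM. mt-Nd6, the minus-strand gene, was at 94.4 TPM in replicate 1 and 15.8 TPM in replicate 2, the lowest value of all 15 genes in replicate 2.

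The ribosomal RNA genes form the mitochondrial ribosome and were among the lower rows in these libraries, which were depleted of ribosomal RNA. mt-Rnr2, the large-subunit RNA, was at 298 TPM in replicate 1 and 106 TPM in replicate 2. mt-Rnr1, the small-subunit RNA, was at 122 and 23.1 TPM. Both together made up 0.0421% of TPM in replicate 1 and 0.0129% in replicate 2.

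By mean TPM the order was mt-Atp8, mt-Co1, mt-Co3, mt-Cytb, mt-Atp6, mt-Co2, mt-Nd1, mt-Nd4, mt-Nd4l, mt-Nd5, mt-Nd2, mt-Rnr2, mt-Rnr1, mt-Nd3 and mt-Nd6, from 6339 ± 4089 (SD, n = 2) down to 55.1 ± 55.6 TPM (SD, n = 2). Of the 14 neighbouring pairs in this order, 13 differed by less than the larger SD of the pair. The exception was mt-Co3 at 3744 ± 1385 TPM (SD, n = 2) against mt-Cytb at 1776 ± 1011 TPM (SD, n = 2). Only 7 of the 14 pairs had the same order in both replicates, and 3 of the 15 genes had the same rank. This SD holds the shift between replicates, which by TPM went the same way for all 15 genes. It therefore does not measure how firmly 2 genes were ordered within a library. Pairs within the SD could keep their order in both replicates, as did mt-Rnr2 and mt-Rnr1, at a ratio of 2.44 and 4.60. The range from the highest to the lowest genes was much wider than the gap between replicates.

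Summed by complex, the 3 complex IV genes held 44.1% of the TPM of mitochondrial protein genes in replicate 1 and 51.0% in replicate 2. The 2 ATP synthase genes held 35.5% and 30.2%, the 7 complex I genes 12.5% and 11.7%, and mt-Cytb 7.94% and 7.0%. By expected count, complex IV held 67.3% and 71.3%, complex I 16.9% and 13.8%, mt-Cytb 11.3% and 9.57%, and ATP synthase 4.55% and 5.30%. Complex IV was the largest group on either scale in both replicates. The place of ATP synthase was not stable between the scales, since most of its TPM was on mt-Atp8.

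Part of the mitochondrial chromosome has close copies in the nuclear genome that have rows of their own in the tables, and the quantification divided ambiguous fragments between them. A search of the GENCODE M21 nuclear transcripts found 24 with a match to a mitochondrial gene, of which 11 with a row in the tables matched over at least 80% of their length at 95% identity or more. Of these, 7 lie next to each other on the minus strand of chromosome 1 in mm10, chr1:24611535-24616197, a stretch of 4663 bases. The other 4 lie on chromosome 2, with 3 rows, and on chromosome 13, with 1 row. Fragments from the chromosome 1 copies and from the mitochondrial genes could hardly be told apart by sequence: 5 of the 7 copies had no difference from the mitochondrial gene over the match. The starts of the other 2 copies are shown beside the mitochondrial gene, 40 bases each, with the differing bases in capitals. The mt-Co1 stretch begins at base 1054 of the gene, and the others at base 1.
mt-Co1: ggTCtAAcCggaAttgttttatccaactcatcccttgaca
Gm29216: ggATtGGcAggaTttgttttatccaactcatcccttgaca
mt-Nd3: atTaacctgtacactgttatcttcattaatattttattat
Gm28438: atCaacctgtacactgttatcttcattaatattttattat
Counted from the first base of mt-Co1, the differences in Gm29216 were T1056A, C1057T, A1059G, A1060G, C1062A and A1066T, and the 479 bases after the last of them, up to the end of mt-Co1, were the same in both. The difference in Gm28438, counted from the first base of mt-Nd3, was T3C.

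The chromosome 1 copies held 134544 counts in replicate 1 and 68049 in replicate 2, and the 4 rows elsewhere 58.23 and 11.04 counts. The copy of the end of mt-Co1, Gm29216, had 82803 counts in replicate 1 and 52685 in replicate 2, against 384259 and 188324 on mt-Co1. The copy of mt-Co2, Gm28661, had 27719 and 1816 counts, against 19867 and 16266 on mt-Co2, so in replicate 1 the nuclear row held more than the mitochondrial one. The copy of mt-Atp6, Gm10925, had 9478 counts in replicate 1 and 5.08 in replicate 2, against 32419 and 18903 on mt-Atp6. These 3 rows gave no common pattern, since the share of the counts placed on the nuclear row moved in different directions between the replicates.

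The copy of mt-Co3, Gm28437, had 6402 counts in replicate 1 and 9960 in replicate 2, against 98061 and 56021 on mt-Co3. The copy of mt-Nd4l, Gm10222, had 6586 and 3031 counts, against 1421 and 1219 on mt-Nd4l. The copy of mt-Nd3, Gm28438, had 1548 and 553 counts, against 408 and 178 on mt-Nd3. For mt-Nd4l and mt-Nd3 most of the summed count was on the nuclear row in both replicates. Gm28439, which matches mt-Nd4 without a difference over 876 bases and was picked out after its values were seen, had 7.72 and 0 counts.

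As a percent of the summed count of gene and copies, the nuclear rows held 82.3% and 71.3% for mt-Nd4l, 79.2% and 75.6% for mt-Nd3, 58.3% and 10.1% for mt-Co2, 22.6% and 0.0269% for mt-Atp6, 17.7% and 21.9% for mt-Co1, and 6.13% and 15.1% for mt-Co3, in replicates 1 and 2. The deposited tables give a posterior SD for each count, which shows how far the division was from settled. It was 22.6% of the posterior mean count for mt-Co2 in replicate 1 and 9.48% in replicate 2. For mt-Nd3 it was 34.8% and 50.6%, for mt-Co3 14.4% and 28.4%, and for mt-Co1 0.0743% and 0.0948%. For Gm10925 the posterior mean in replicate 2 was 2215 counts beside the expected count of 5.08, so the 2 estimates in the same table disagreed on that row. They also disagreed on Gm28437, with posterior means of 29133 and 26932 counts beside expected counts of 6402 and 9960. On mt-Co3 itself the posterior means were 75330 and 39049, below the expected counts of 98061 and 56021. mt-Nd1, mt-Nd2, mt-Atp8, mt-Nd5, mt-Nd6 and mt-Cytb were matched by none of the chromosome 1 rows, and no nuclear row matched to them held counts. For mt-Atp8 this concerns rows and not sequence. Its last 43 bases are also the start of mt-Atp6, which Gm10925 matches from base 1 without a difference.

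**Figure D2:**
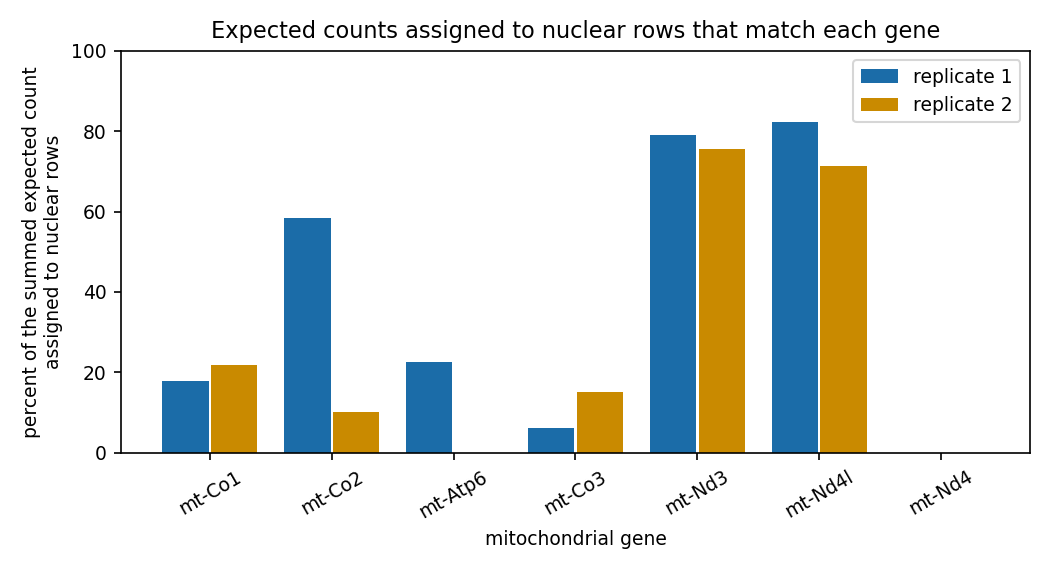
Percent of the summed expected count of each mitochondrial gene and its matching nuclear rows that the tables placed on the nuclear rows, for the 7 genes with a count there (bars, blue for replicate 1 and orange for replicate 2). mt-Co2 and mt-Atp6 differ most between the replicates, at 58.3% against 10.1% and 22.6% against 0.0269%, and the mt-Nd4 bars are at or near 0.

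The replicates were then compared gene by gene, with a fold taken from counts over library sizes scaled by TMM, which assumes that most genes do not differ. All 15 mitochondrial genes had the mean count of 50 that a call required. In replicate 1 the level of 8 of them was higher by 2-fold or more, against 4.45% of the 14708 genes with that many counts, and in replicate 2 that of 0 was, against 2.21%. With libraries scaled to the spike-ins instead, the 8 became 3, which were mt-Nd6, mt-Atp8 and mt-Rnr1. The share of all genes called with that scaling was not taken, so the 3 have no background beside them. That scaling moved the median log2 ratio of all genes to 0.33. The 8 under TMM were the protein genes mt-Nd1, mt-Nd2, mt-Atp8, mt-Nd5, mt-Nd6 and mt-Cytb and both ribosomal RNA genes. At any size of difference, 14 of the 15 were higher in replicate 1, against 50.2% of those genes; mt-Nd4l was the exception under TMM and turned to higher in replicate 1 with library-size or TPM scaling, while mt-Co2 turned to higher in replicate 2 when libraries were scaled to the added spike-ins. The deposited TPM intervals, whose level the sources used here do not state, did not overlap and were higher in replicate 1 for 12 of the 15, against 43.2% of genes in that direction and 16.4% in the other. They overlapped for mt-Co2, mt-Nd3 and mt-Nd4l.

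The median log2 ratio of the 13 protein genes, replicate 2 over replicate 1, was -0.93, beside -0.00220 for all 14708 genes. Their summed counts were 746368 in replicate 1 and 365590 in replicate 2, which is 1.70-fold higher in replicate 1 (95% interval 1.70 to 1.71, counting error only). The summed log2 ratio was -0.77 with TMM, -0.90 with library-size scaling, -0.75 with DESeq2 size factors, -0.42 with spike-in totals and -1.05 on the TPM scale. The median of all genes, taken over those with 10 or more counts on average, moved with the scaling too, to -0.019, -0.15, -0.00245, 0.33 and -0.22 in the same order. Each of the first 4 scalings moves nearly all genes by the same amount, so only the TPM scale could change the distance to that median, which was -0.75 with TMM and -0.83 on the TPM scale. In bulk tissue, fewer cells of a type and less RNA per cell cannot be told apart.

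The widest gap belonged to mt-Nd6, the minus-strand gene, whose count was 1057 in replicate 1, 172 in replicate 2 and thus 5.13-fold apart (95% interval 4.36 to 6.06). mt-Rnr1, the ribosomal RNA gene nearer the start of the chromosome, had 3289 and 606 counts, a 4.53-fold difference (95% interval 4.15 to 4.95). mt-Rnr2 had 14798 and 5137 counts, a 2.40-fold difference (95% interval 2.33 to 2.48). These 3 RNAs and mt-Nd3 were also the 4 lowest genes by mean TPM.

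Within pairs of genes on the same chromosome, the replicates thus differed in composition as well as in amount. mt-Co1 was at 84.4 times the TPM of mt-Nd6 in replicate 1 and 254 times in replicate 2. mt-Nd5, which meets mt-Nd6 tail to tail, was at 5.71 times its TPM in replicate 1 and 12.7 times in replicate 2. The ratio of mt-Rnr2 to mt-Rnr1 was 2.44 and 4.60.

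The other protein genes not matched by a chromosome 1 row had folds close to each other. mt-Nd5 was 2.30-fold, mt-Nd1 2.29-fold, mt-Nd2 2.07-fold and mt-Cytb 2.01-fold higher in replicate 1, while mt-Atp8, with the fewest counts of these 5, was 2.60-fold higher. Over the 6 genes without such a row the folds ran from 2.01 for mt-Cytb to 5.13 for mt-Nd6, with a median of 2.29. Over the 7 genes with such a row, counted alone, they ran from 0.973 for mt-Nd4l to 1.91 for mt-Nd3, with a median of 1.46, and 0 of the 7 were 2-fold apart. All 6 genes of the first set were thus above all 7 of the second. Since the sets were drawn up after values were seen, this is a description without a test.

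Adding the nuclear rows to the genes they match changed the second set. mt-Co2 went from 1.02-fold alone to 2.20-fold with its copies, mt-Nd4l from 0.973-fold to 1.57-fold, mt-Atp6 from 1.43-fold to 1.85-fold and mt-Nd3 from 1.91-fold to 2.23-fold. mt-Co1 went from 1.70-fold to 1.62-fold, mt-Co3 from 1.46-fold to 1.32-fold, and mt-Nd4 stayed at 1.87-fold. Counted this way the 7 genes ran from 1.32 to 2.23 with a median of 1.85, and 2 of them, mt-Co2 and mt-Nd3, were 2-fold apart. All 13 protein genes were then higher in replicate 1, with a median log2 ratio of -1.05. The share of TPM on mitochondrial genes and copies together was 4.49% in replicate 1 and 2.23% in replicate 2.

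**Figure D3:**
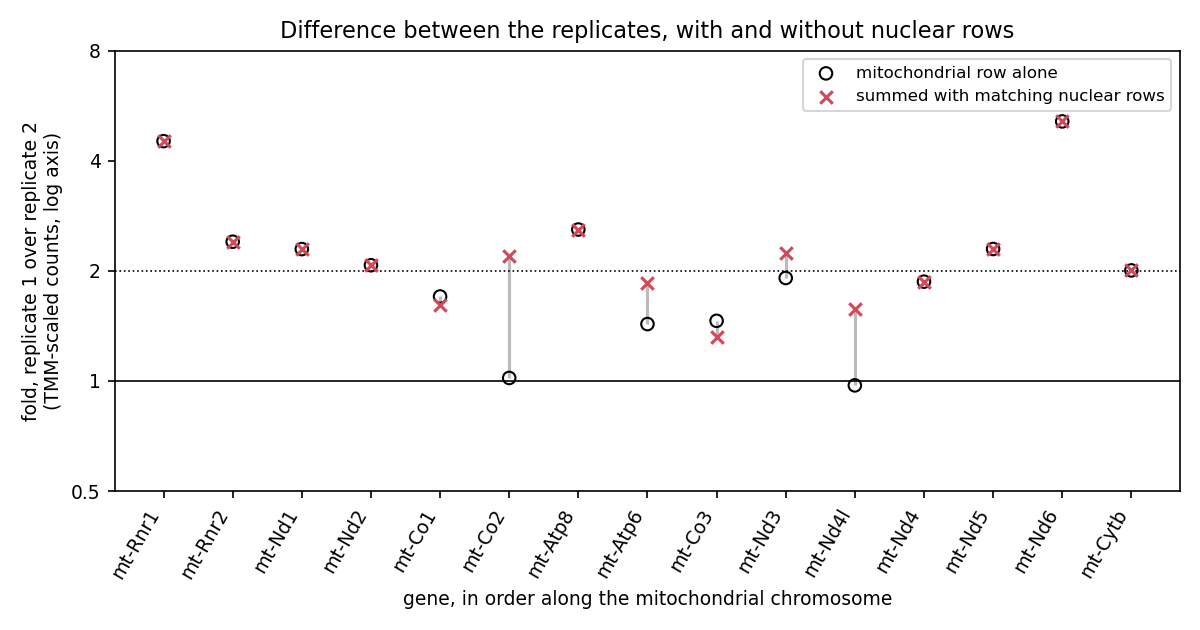
Fold of replicate 1 over replicate 2 for each of the 15 genes on a log axis, from TMM-scaled counts, for the mitochondrial row alone (open circles) and summed with its matching nuclear rows (crosses), with lines at 1 (solid) and 2 (dotted). mt-Co2 moves from 1.02 to 2.20 and mt-Nd4l from 0.973 to 1.57, while the genes without counts on nuclear rows do not move.

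By complex, the summed counts of complex I were 2.08-fold higher in replicate 1, those of complex III 2.01-fold, those of complex IV 1.61-fold and those of ATP synthase 1.46-fold. All 4 sums were higher in replicate 1. They hold the mitochondrial rows alone, so their order depends in part on how fragments were divided with nuclear rows. mt-Atp6, with most of the ATP synthase counts, was 1.43-fold higher alone and 1.85-fold with its copy. Complexes I and III hold 5 of the 6 protein genes not matched by a chromosome 1 row, and all 3 complex IV genes are matched by one. The complex IV genes did not move in 1 direction when copies were added. mt-Co2 rose to 2.20-fold, while mt-Co1 and mt-Co3, with most of the complex IV counts, fell to 1.62-fold and 1.32-fold. Sums by complex with copies are not given, and the cause of the order was not tested.

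The nuclear genes for subunits of the same complexes and of complex II were set beside them, 75 of a list of 76 being found in the tables. Their median log2 ratio was -0.000254, with 38 lower and 37 higher in replicate 2. Of the 75, 1 was 2-fold or more apart, beside 4.45% of all genes 2-fold higher in replicate 1 and 2.21% in replicate 2. It was Uqcrb of complex III, at 353 counts in replicate 1 and 139 in replicate 2. For complex I the median log2 ratio was 0.077 over 36 nuclear genes and -1.05 over 7 mitochondrial genes. For complex III it was -0.18 over 9 nuclear genes, against -1.004 for mt-Cytb. For complex IV it was 0.032 over 11 nuclear genes and -0.55 over 3 mitochondrial genes. For ATP synthase it was -0.16 over 15 nuclear genes and -0.94 over 2 mitochondrial genes. In each of these complexes the mitochondrial median lay below the nuclear one. Complex II, succinate dehydrogenase, has no mitochondrial subunit, and its 4 genes had a median log2 ratio of -0.26, all 4 lower in replicate 2 and none 2-fold apart.

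**Figure D4:**
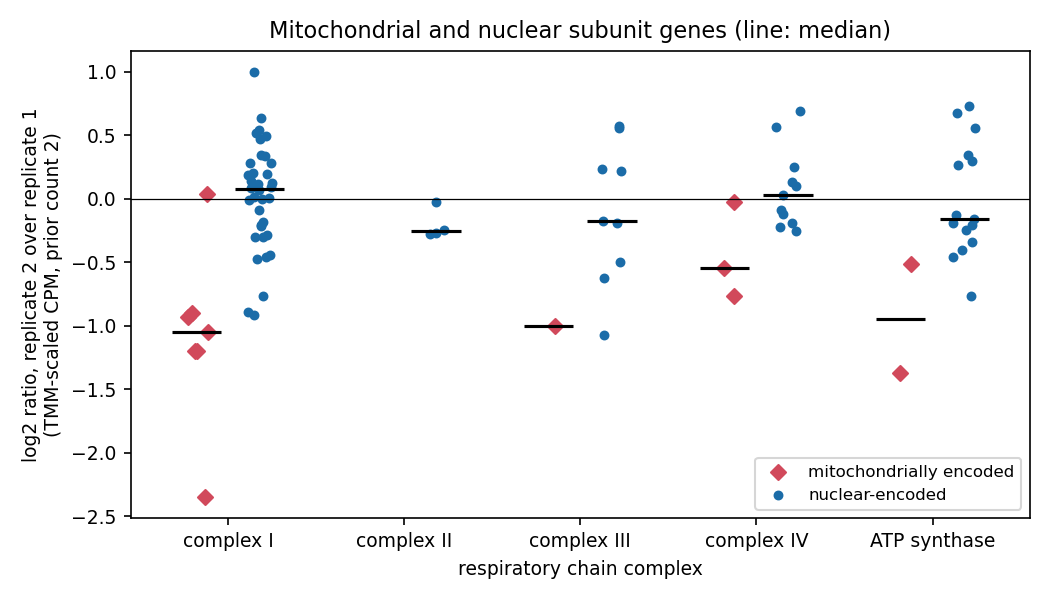
Log2 ratio of replicate 2 over replicate 1 (TMM-scaled CPM, prior count 2) for mitochondrially encoded subunit genes (red diamonds) and nuclear-encoded subunit genes (blue points) of each respiratory complex, 1 point per gene, with a black line at the median of each set. The red medians lie between -1.05 and -0.55 and the blue ones between -0.26 and 0.077, and the red points nearest 0 are mt-Nd4l and mt-Co2.

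In median level the mitochondrial genes of each complex stood above the nuclear ones. The median TPM of complex I genes was 446 in replicate 1 and 201 in replicate 2 for mitochondrial genes and 99.9 and 88.5 for nuclear ones. mt-Nd3, at 81.2 and 36.5 TPM, and mt-Nd6, at 94.4 and 15.8 TPM, lay below that nuclear median in both replicates. For mt-Nd3 this holds for the mitochondrial row alone, since its copy Gm28438 was at 315 and 116 TPM, above that median. For complex IV the median TPM was 4723 and 2765 against 316 and 241. mt-Cytb, at 2491 and 1061, compared with a nuclear complex III median of 197 and 147. Single nuclear genes lay above the lowest mitochondrial gene of their complex. The 4 named next did so in replicate 2, but only Ndufs7 and Cox6a1 did in replicate 1. For Cox6a1 in replicate 1 this holds for the mt-Co2 row alone, at 1158 TPM. The matching nuclear row Gm28661 was at 1626 TPM there, and mt-Co2 summed with it lay above Cox6a1. Ndufs7, a core subunit of complex I, was at 373 and 463 TPM. Cox6a1, a subunit of complex IV, was at 1878 and 1909 TPM, Atp5b, the catalytic beta subunit of ATP synthase, at 1457 and 1431 TPM, and Uqcr11 of complex III at 1120 and 1119 TPM. These 4 were the highest nuclear genes of their complexes by mean TPM.

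Factors that act on the mitochondrial chromosome and its RNA are all made from nuclear genes, and lists of them were described in the same way. On a list of 12 genes for mitochondrial transcription and DNA maintenance, 8 were lower and 4 higher in replicate 2, none 2-fold apart, with a median log2 ratio of -0.056. Its 4 highest genes by mean TPM were Mterf3, of the mitochondrial termination factor family, at 167 and 194 TPM in replicates 1 and 2, Polg, the catalytic subunit of the mitochondrial DNA polymerase, at 48.5 and 51.2 TPM, Polrmt, the mitochondrial RNA polymerase, at 40.9 and 39.0 TPM, and Mterf4, of the same family as Mterf3, at 8.72 and 6.89 TPM. Mterf3 rested on 462 and 421 counts, against 4860 and 5397 for Polg, so its first place by TPM did not hold by count. On a list of 19 genes for RNA processing and stability, 11 were lower and 8 higher in replicate 2, again with none 2-fold apart and a median of -0.057. Its 4 highest were Fastk, of the FAST kinase family of mitochondrial RNA regulators, at 206 and 173 TPM, Tbrg4, of the same family, at 45.7 and 49.6 TPM, Rexo2, an oligoribonuclease, at 45.9 and 37.5 TPM, and Hsd17b10, a subunit of the mitochondrial RNase P, at 45.4 and 33.6 TPM. On a list of 16 genes for mitochondrial translation the median was 0.11, with 7 lower, 9 higher and none 2-fold apart. Its 4 highest were the ribosomal proteins Mrps34, at 88.7 and 107 TPM, Mrpl3, at 49.9 and 60.9 TPM, and Mrps12, at 40.7 and 53.3 TPM, and the elongation factor Tufm, at 58.97 and 47.6 TPM. No gene on these lists was thus 2-fold apart, beside 4.45% of all genes 2-fold higher in replicate 1 and 2.21% in replicate 2.

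Markers of other tissues moved with the same pair of libraries. The 8 skeletal muscle markers were each higher in replicate 1 by 2-fold or more, and summed to 2817 TPM against 62.5 TPM in replicate 2, where Myh2 and Myh4 were at 0. The same held for all 5 brown fat markers, with 230 against 20.4 TPM, and for all 5 squamous epithelium markers, with 4043 against 0.590 TPM and Krtdap and Krt6a at 0 in replicate 2. Of 8 cardiac muscle markers none was 2-fold apart, at 1529 and 1170 TPM in sum. Each of 5 red blood cell markers was higher in replicate 2 by 2-fold or more, at 22915 and 63391 TPM in sum, and the 6 lung markers were all higher in replicate 2 with none 2-fold apart, at 153479 and 164638 TPM in sum. Muscle and brown fat are rich in mitochondria, and mature red blood cells have none. The part of these tissues in the mitochondrial difference was not tested.

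The muscle-type forms of complex IV subunits were looked at for the same reason. Cox7a1, which brown fat also expresses, was at 241 counts and 81 counts in the replicates, 2.45-fold apart. Cox8b was at 93.7 and 43.5 TPM, and Cox6a2 at 226 and 182 TPM. Of the 3 genes, Cox7a1 alone was 2-fold apart, beside 4.45% of all genes in that direction, and the median log2 ratio was -0.88.

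A list of transcribed contigs, pooled over the libraries by the authors and placed on the mm9 build, gave the pattern along the mitochondrial chromosome. It holds 10 contigs there of 795937 in all, 8 on the plus strand and 2 on the minus strand. The highest, from 1031 to 6717, had a level of 872, which ranked 29th in the whole list, beside a list median of 0.184. The contig from 10813 to 11569 had a level of 495 and that from 11710 to 16299 a level of 330, while the first one, from 39 to 996, had a level of 36.8. Over the 4095 bases from 6718 to 10812, the 4 plus-strand contigs listed had levels of 0.132 to 1.34. The plus strand thus had high levels on either side of a stretch where it was listed at low ones. The sources used here do not say how reads with more than 1 genomic match were treated in this list, and coordinates of this build were not set against the mm10 gene tables.

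The minus-strand contigs were short and low. The one from 9280 to 9602 had a level of 0.406 and the one from 9668 to 9990 a level of 0.240. Together they held 0.00303% of the mitochondrial signal in the list, and the mitochondrial contigs in all held 0.700% of the list's signal. Nearly all of the mitochondrial signal in the list was thus on the plus strand.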

How the data were processed

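Polyadenylated lung RNA was sequenced as stranded paired reads of 76 nt in 2 libraries, per the labels. The authors' deposited gene tables hold expected counts (estimated fragments, not normalized), TPM values scaled per effective length to a fixed total with spike-ins included, and FPKM values, per the file headers. Their posterior SDs and TPM intervals are the authors' too. The build was mm10 with GENCODE M4, as the file lists deposited with each library state. No source used here names the aligner or the quantifier. On mm9 the authors deposited a list of contigs with signal levels and a list of junctions with counts of reads, each entry with a reproducibility score and both pooled over the libraries.

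Symbols came from GENCODE M21, which named 42462 of 43346 gene rows. Left out were 26249 rows that named no gene or spike-in (0 counts in replicate 1, 2 in replicate 2). The expected counts were then rounded and scaled by TMM in edgeR 4.0.16 (prior count 2), with DESeq2 1.42.0 size factors as an alternative, in R 4.3.3. The edgeR quasi-likelihood test could not be used with 1 group. Folds are ratios of counts over scaled library sizes with exact Clopper-Pearson 95% intervals. A 2-fold difference needed a mean count of at least 50, or of at least 10 for members of the gene lists. On data simulated for this comparison over 43346 genes, 94 of 100 genes changed 4-fold and 15 of 100 changed 1.5-fold were called, with 296 of 14487 unchanged genes. Nuclear copies were found with blastn 2.17.0 (identity of at least 95% over at least 80% of the nuclear transcript, plus strand). The rest ran in Python 3.11.15 with pandas 2.3.3, numpy 2.4.6, scipy 1.17.1 and matplotlib 3.10.9.

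Members and lists were chosen with earlier results of these data known. Every protein and ribosomal RNA gene was named, with the 6 nuclear copies of highest count and the 4 genes of highest mean TPM on each list of mitochondrial factors, the highest of complexes I, III and IV and ATP synthase, and, picked after values were seen, Sftpc, 2-fold members of respiratory chain lists, the muscle-type genes and markers at 0. Alternatives covered scaling, prior count and pseudocount, low-count filters, the measure of level, spike-ins, nuclear copies, mt-Atp8 and each library alone.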

Additional observations from a re-analysis of the deposited data

Results flagged for a closer look

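The mitochondrial genes have no introns, and the junction list is not used in the comparisons above, so the entries it holds on the mitochondrial chromosome are given here as a signal outside the main measurement. The list gives 406 reads on 180 junctions there, 175 on the plus strand and 5 on the minus strand, and 131 of the 180 rest on 1 read. Of the 180, 6 had the authors' reproducibility score at 0.1 or below, which is 3.33% against 34.6% of all junctions in the list. These 6 held 170 reads, led by the junctions from 6458 to 6518 with 63 reads and from 6451 to 6517 with 54 reads on mm9, with another nearby, from 6454 to 6514, at 23 reads. The whole list holds 35330315 junction reads, and no control sample gives a background for them.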

How the results depend on the processing

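Of 46 recomputed values for the main results, 38 stayed within 1 replicate SD (1.5 times for a count), 6 moved further and 2 changed sign. With 2 libraries, the level in either library alone always lies within that SD of their mean. Shares by FPKM equal shares by TPM within a library. Levels recomputed in these ways could not move, and they are among the values that stayed, here and for single genes below. That SD is wide for the mitochondrial share: 2.35% by TPM, it was 1.21% by expected count and 3.36% with copies, both within the SD of 1.17. Scaling to spike-in totals, an alternative added after the data were seen, moved the summed log2 ratio from -0.77 to -0.42, the count of 2-fold genes from 8 to 3 and the median log2 ratio of the protein genes from -0.93 to -0.58. It turned mt-Co2 to 0.32 and the nuclear respiratory chain median from -0.000254 to 0.349, and DESeq2 size factors turned that median to 0.0159. The log2 ratio of mt-Nd4l, 0.040 with TMM, was -0.094 with library-size scaling, -0.18 on both log2 TPM scales and -0.65 with nuclear copies added, also an added alternative. Complex IV held 47.6% of the protein gene level by TPM, 65.4% per annotated kilobase and 67.2% with copies per kilobase. A contig score of at most 0.01 left 6 of 10 contigs. With each library alone the TPM share ranged from 1.53% to 3.18%, the detected genes from 15 to 15 and the complex IV share from 44.1% to 51.0%. Of 169 recomputed values for single genes, 124 stayed, 40 moved and 5 changed sign; these 5 are given above. The causes were not tested. No paired analysis was possible because both libraries belong to 1 group. The overlap of contigs with genes was not run, since no mm9 annotation was used. With 2 libraries every SD rests on 1 difference. Depth limits mt-Nd6, mt-Nd3 and mt-Atp8 in replicate 2 most, at 172, 178 and 488 counts.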

Other observations

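Nuclear genes that control the number of mitochondria, or that serve as measures of it, were not described above. On a list of 6 biogenesis regulators, 3 were lower and 3 higher in replicate 2, none 2-fold apart, with a median log2 ratio of -0.085. Esrra, a nuclear receptor that activates respiratory genes, was at 41.1 TPM in replicate 1 and 43.98 TPM in replicate 2, and Nrf1, a transcription factor for respiratory genes, at 28.2 and 25.5 TPM. Pprc1, a coactivator related to PGC-1, was at 17.4 and 17.5 TPM. Gabpa, a subunit of another such factor, was at 9.44 and 4.83 TPM, a 1.69-fold difference. On a list of 8 genes for mitochondrial mass and import, 5 were lower and 3 higher in replicate 2, with a median log2 ratio of -0.34. None of these was 2-fold apart either. Of all genes, 4.45% were 2-fold higher in replicate 1 and 2.21% in replicate 2, so 0 on lists this short does not set them apart. Cs, citrate synthase of the citric acid cycle, was at 122 and 68.3 TPM, a 1.53-fold difference, and Vdac1, the main outer-membrane channel, at 57.7 and 31.8 TPM, a 1.55-fold difference. Vdac2, a related channel, was at 84.7 and 89.9 TPM and was 0.789-fold, so members of this list lay on both sides of 1. Timm23, of the inner-membrane import channel, was at 74.6 and 87.3 TPM but was 1.23-fold higher in replicate 1 by count, so its direction differed between the scales.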
